A study of Mus musculus with 60 samples.

Results

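Il33 encodes interleukin 33, an alarmin, and Il1rl1 encodes ST2, the receptor that binds it. Both genes were taken by symbol from count tables of mouse cancer-associated fibroblasts (CAFs), the activated fibroblasts of tumours, and they were 2 of the 48440 genes listed. They were chosen by their CPM levels in these same libraries, so these levels and changes are given as a description, with no test. The tables hold 60 bulk RNA sequencing libraries in 8 groups. The CAFs, called tCAFs in the labels with no explanation of the prefix, were cultured alone or together with the mouse lung adenocarcinoma line 393P, known to metastasise poorly, or 344SQ, known to metastasise readily. Sorting by fluorescence enriched the CAFs of every group before they were lysed.

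In multicellular aggregates, where both cell types touch, CAFs alone (titled CAF-GFP), CAFs with 393P and CAFs with 344SQ had 3 replicates each. A second table holds 3 replicates each of aggregates with 344SQ cells carrying a control shRNA (shCTL) and with 344SQ cells carrying an shRNA against Zeb1 (shZEB1), so both of these groups held cancer cells and an shRNA, and no CAFs-alone group stood beside them. In the Boyden chamber, where a membrane parts the cells, the groups were again CAFs alone, CAFs with 393P and CAFs with 344SQ, now with 5 replicates each, and the 3 technical libraries of a replicate were added up. The labels call the replicates biological but do not say whether they came from separate CAF isolates, mice or cultures, so p-values measure only the spread between these samples. In bulk RNA, fewer cells of a type and less RNA per cell cannot be told apart.

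IL-33 belongs to the IL-1 family. It is held in the nucleus and released when cells are damaged. It binds ST2, which pairs with the co-receptor IL1RAP and passes the signal through MYD88, IRAK kinases and TRAF6 to NF-kB. A shorter transcript of Il1rl1 gives a soluble ST2 that traps the cytokine. Fibroblasts, endothelium and epithelium are known sources of IL-33, and mast cells, innate lymphoid cells and regulatory T cells are known carriers of ST2.

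Il33 (ENSMUSG00000024810.16) lies on the plus strand of chromosome 19 from 29925114 to 29960718 in GRCm38, and Il1rl1 (ENSMUSG00000026069.15) on the plus strand of chromosome 1 from 40429570 to 40465415. Neither gene overlaps another in GENCODE M21. The full-length Il33 transcripts there encode 266 codons from starts at 29925114 and 29945790. The complete Il1rl1 transcripts encode 567 codons, the membrane-bound length, or 337 codons, a shorter form that ends early. The counts were made per gene, so these forms cannot be told apart here.

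The 250 bases before each gene's start in RefSeq are shown because both genes have a pair of starts that gene counts merge. Positions are in GRCm38.p6 on the plus strand, and capitals mark the motif matches found. The Il33 windows are chr19:29924863-29925112 (upstream start) and chr19:29945540-29945789 (downstream start), and the Il1rl1 windows are chr1:40429320-40429569 and chr1:40439379-40439628.
Il33 upstream: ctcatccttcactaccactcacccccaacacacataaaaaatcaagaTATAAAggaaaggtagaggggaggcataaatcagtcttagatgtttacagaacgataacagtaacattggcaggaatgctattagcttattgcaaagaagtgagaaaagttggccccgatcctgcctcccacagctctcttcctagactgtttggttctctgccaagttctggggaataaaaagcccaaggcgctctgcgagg
Il33 downstream: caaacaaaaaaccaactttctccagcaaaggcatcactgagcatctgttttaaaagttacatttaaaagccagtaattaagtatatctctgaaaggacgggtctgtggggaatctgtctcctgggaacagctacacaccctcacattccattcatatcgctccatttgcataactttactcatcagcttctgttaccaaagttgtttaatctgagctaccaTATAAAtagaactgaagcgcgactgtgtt
Il1rl1 upstream: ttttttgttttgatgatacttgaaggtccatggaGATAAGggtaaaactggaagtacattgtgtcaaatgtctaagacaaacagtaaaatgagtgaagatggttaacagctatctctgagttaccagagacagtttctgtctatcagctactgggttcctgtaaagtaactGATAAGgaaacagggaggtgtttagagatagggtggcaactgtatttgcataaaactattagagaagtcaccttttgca
Il1rl1 downstream: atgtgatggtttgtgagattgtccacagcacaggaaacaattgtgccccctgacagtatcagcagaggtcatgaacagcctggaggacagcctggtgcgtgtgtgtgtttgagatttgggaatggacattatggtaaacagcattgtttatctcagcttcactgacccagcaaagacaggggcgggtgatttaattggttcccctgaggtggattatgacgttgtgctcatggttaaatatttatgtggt

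In all, 5 motifs were searched on both strands. The first 3 were the NF-kB site, the AP-1 site TGANTCA and the STAT site TTCNNNGAA, which 7.25%, 6.75% and 7.02% of 32851 windows of this length held. None of them was in these windows, which says only that those letters are absent there. GATAAG, the GATA factor motif (6.55% of windows), and TATAAA, the TATA box (12.4%), were added after the sequences had been read. GATAAG began 216 and 79 bases before the upstream Il1rl1 start. TATAAA began 203 bases before the upstream Il33 start and 29 bases before the downstream Il33 start. These matches describe letters and are not shown to be sites.

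The replicates held 757717 to 1258751 counts in the aggregates, 739530 to 2144803 in the shRNA aggregates and 4182944 to 8542262 in the Boyden chamber, so the precision is highest in the last. All 12 fibroblast markers, Col1a1, Pdgfra and Thy1 among them, had counts in each table. Lum had few, with at most 3 counts in an aggregate library, 4 in an shRNA library and 11 in a Boyden replicate. Of 9 mast cell markers, 6 (Cma1, Cpa3, Fcer1a, Ms4a2, Tpsab1 and Tpsb2) were at 0 in every aggregate library. Of 11 leukocyte markers Ptprc and Adgre1 were at 0 there, while Cd68 had up to 31 counts and Csf1r up to 7, and the list summed to 8.15 to 35.2 CPM. The leukocyte sums were 35.8 to 112 CPM with shCTL and 43.0 to 164 with shZEB1. Gata3 had up to 139 counts in an shRNA library and Cd68 up to 106. Boyden replicates had leukocyte sums of 20.8 to 32.0 CPM, with up to 87 counts of Cd68, 72 of Csf1r and 72 of Gata3. Their mast cell sums were 1.25 to 5.64 CPM, with up to 39 counts of Ms4a2. The shRNA libraries stood apart from each other. Zeb1, which was targeted in the 344SQ cells and is also known in fibroblasts, was at 71.8, 105 and 50.3 CPM with shCTL and at 144, 48.4 and 120 CPM with shZEB1, so the sorted libraries did not show the knockdown. Carcinoma markers summed to 152, 116 and 1641 CPM with shCTL and to 141, 1283 and 573 CPM with shZEB1.

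In the aggregates Il33 was far higher in CAFs with 344SQ and far lower in CAFs with 393P than in CAFs alone. Levels are CPM, the counts of a gene per library total on a fixed scale, with totals adjusted for composition (TMM). In CAFs alone Il33 was at 48.3, 59.5 and 37.6 CPM (36 to 56 counts per library). With 344SQ it was at 104, 161 and 389 CPM (101 to 417 counts). With 393P it was at 4.69, 2.38 and 17.8 CPM (3 to 17 counts). Every 344SQ library lay above every CAFs-alone library and every 393P library below, with no overlap between any of the groups. Replicate 3 held the highest value in both co-cultures.

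The mean Il33 level was 48.5 ± 10.9 CPM in CAFs alone, 218 ± 151 with 344SQ and 8.28 ± 8.29 with 393P (SD, n = 3 each). The log2 change was 2.19 ± 0.34 (SE) with 344SQ and -2.62 ± 0.51 with 393P, both against the same CAFs-alone libraries. Between the lines it was 4.81 ± 0.44. Without 344SQ replicate 3 the first change was 1.45, and without 393P replicate 3 the other 2 were -3.75 and 5.94. The share of all 7992 genes tested whose values did not overlap was 10.6% in the higher direction for 344SQ against CAFs alone, 12.9% in the lower direction for 393P against CAFs alone and 8.7% in the higher direction between the lines. Because the gene was chosen for this pattern, nothing is read from these shares.

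Markers of other cells moved beside these values. The 16 carcinoma and epithelial markers summed to 7.09 to 13.2 CPM in CAFs alone. With 344SQ the sums were 13.8, 23.1 and 30.3 CPM, and with 393P they were 19.9, 26.2 and 95.8 CPM. Of these markers only Sftpc was at 0 in all 9 libraries, but Epcam, Esrp1, Grhl2, Rab25, Elf3 and Nkx2-1 had at most 1 count. Krt8 had up to 39 counts in a library, Krt19 up to 25, Cldn4 up to 14 and any other at most 9. In the 344SQ libraries Il33 and the carcinoma markers had the same order. In replicates 1, 2 and 3 with 393P Il33 was at 4.69, 2.38 and 17.8 CPM. Replicate 3 with 393P was the highest for both Il33 and carcinoma markers, and the other replicates differed in order. The 8 endothelial markers summed to 38.7 to 58.8 CPM in CAFs alone, 28.4 to 107 with 344SQ and 323 to 524 with 393P. Among them Cdh5 and Cldn5 were at 0 in every aggregate library, and Flt1 had up to 653 counts in a library against at most 9 for any other member. The 12 fibroblast markers summed to 4009 to 6751 CPM in CAFs alone, 4860 to 5217 with 344SQ and 7632 to 9060 with 393P. Their sum was thus highest where Il33 was lowest, but abundant genes weigh most in it. Over the 9 libraries the median was 1360 CPM for Col3a1 and 1165 for Col1a2, against 18.3 for Fap and 0 for Lum. The part of the cells behind all these markers in the Il33 levels was not tested.

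**Figure D1:**
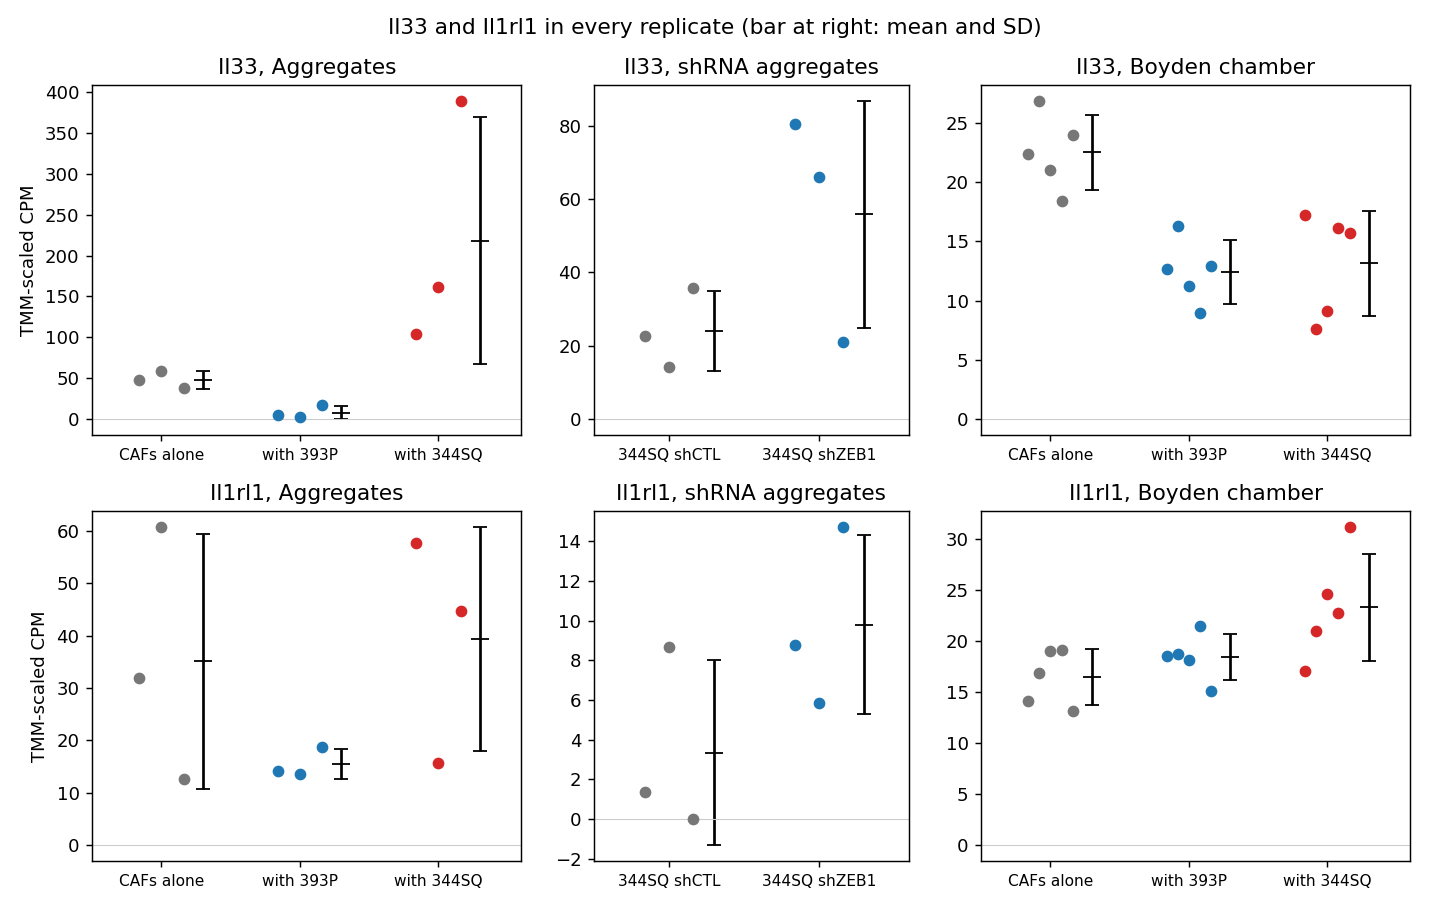
Il33 (top) and Il1rl1 (bottom) in every replicate of the aggregates, the shRNA aggregates and the Boyden chamber. Each point is the TMM-scaled CPM of a replicate, the bar to its right gives the mean and SD of the group, and each panel has its own linear axis. Il33 in the aggregates ran from 2.38 CPM with 393P to 389 CPM with 344SQ, whereas the Il1rl1 values of the groups overlapped in every panel.

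Il1rl1, the receptor gene, varied widely between replicates of the aggregates. It was at 31.9, 60.8 and 12.5 CPM in CAFs alone, at 57.6, 15.8 and 44.8 CPM with 344SQ and at 14.1, 13.5 and 18.8 CPM with 393P. The CAFs-alone and 344SQ libraries each spread over most of the range, the 393P libraries sat near its low end, and all groups overlapped. The means were 35.1 ± 24.3, 39.4 ± 21.4 and 15.5 ± 2.92 CPM (SD, n = 3). The log2 change was 0.23 ± 0.38 with 344SQ and -1.15 ± 0.43 with 393P, and 1.38 ± 0.42 between the lines. Leaving out a replicate moved these to -0.18 to 0.80, to -1.56 to -0.57 and to 1.02 to 1.73.

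Il1rap encodes the co-receptor shared by ST2, the IL-1 receptor and the IL-36 receptor. It was at 19.0, 22.5 and 13.6 CPM in CAFs alone, at 32.9, 36.4 and 36.4 CPM with 344SQ and at 10.3, 18.2 and 29.3 CPM with 393P. The 344SQ libraries lay above all others, yet neither change passed the test: against CAFs alone it was 0.95 ± 0.33 (edgeR adjusted p = 0.0918) and against 393P 0.88 ± 0.32 (adjusted p = 0.145). With 393P the change was 0.07 ± 0.35 (adjusted p = 0.950). Myd88, the adaptor, was at 18.6 ± 1.10 CPM in CAFs alone, 12.0 ± 3.10 with 344SQ and 14.4 ± 2.08 with 393P, with log2 changes of -0.60 ± 0.36 (adjusted p = 0.443) and -0.35 ± 0.35 (adjusted p = 0.653).

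The level of the ligand against its receptor was compared per kilobase of exons, since Il33 has 2886 exon bases, Il1rl1 6894 and Il1rap 11360. In aggregates of CAFs alone Il33 was at 16.8 ± 3.78 CPM per kilobase, Il1rl1 at 5.09 ± 3.52 and Il1rap at 1.61 ± 0.394. The ratio of Il33 to Il1rl1 on this scale had a median of 3.62 in CAFs alone (2.34 to 7.17). With 344SQ the median was 20.8 (4.31 to 24.4), and with 393P it was 0.796 (0.422 to 2.26). The 393P ratios lay below those of CAFs alone, while those with 344SQ overlapped them. In the Boyden chamber the order differed, with a median of 3.77 (2.30 to 4.37) in CAFs alone, 1.20 (0.869 to 2.42) with 344SQ and 1.63 (0.9996 to 2.08) with 393P.

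In the Boyden chamber Il33 was lower with either line than in CAFs alone. CAFs alone held 22.4, 26.9, 21.0, 18.4 and 24.0 CPM (147 to 196 counts). With 344SQ the values were 17.2, 7.64, 9.17, 16.2 and 15.7 CPM (44 to 90 counts), and with 393P they were 12.7, 16.3, 11.2, 8.98 and 12.9 CPM (59 to 102 counts). Every co-culture replicate lay below every CAFs-alone replicate, and the co-cultures overlapped each other (4.46% of genes did not overlap between the lines). The nearest values were 18.4 CPM in CAFs alone and 17.2 CPM with 344SQ.

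The Boyden means were 22.5 ± 3.17, 13.2 ± 4.43 and 12.4 ± 2.68 CPM (SD, n = 5). The log2 change was -0.78 ± 0.17 with 344SQ and -0.86 ± 0.17 with 393P, against the same CAFs-alone replicates, and 0.07 ± 0.19 between the lines. Lower values without overlap were held by 5.08% of the 14040 genes tested for 344SQ and by 6.3% for 393P, again given only as a background. The direction with 344SQ was thus opposite to that in the aggregates. The formats were sequenced as separate tables and each change was taken within its own table, so this difference was not tested. Among the fibroblast markers Col1a2 and Vim had the highest medians over the replicates, 3397 and 2079 CPM, and weigh most in their sum. That sum was 8780 to 9235 CPM in CAFs alone, 6810 to 7545 with 344SQ and 7498 to 7861 with 393P. This fall stood beside that of Il33, and its part in the Il33 levels was not tested. Carcinoma markers summed to 25.4 to 39.4, 29.4 to 51.2 and 17.5 to 88.9 CPM in the same order, and endothelial markers to 84.3 to 95.2, 77.1 to 81.7 and 58.4 to 66.0 CPM. Among the endothelial markers Flt1 had up to 657 counts in a replicate, Kdr up to 142 and any other at most 9.

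Il1rl1 in the Boyden chamber stood at 14.2, 16.9, 19.0, 19.2 and 13.1 CPM in CAFs alone, at 17.0, 21.0, 24.6, 22.7 and 31.2 CPM with 344SQ and at 18.6, 18.7, 18.2, 21.5 and 15.1 CPM with 393P. With 344SQ 4 of 5 replicates lay above all CAFs-alone replicates, and the groups overlapped. The means were 16.5 ± 2.76, 23.3 ± 5.23 and 18.4 ± 2.27 CPM. The log2 change was 0.49 ± 0.14 with 344SQ, 0.15 ± 0.14 with 393P and 0.33 ± 0.14 between the lines. The ligand and its receptor thus differed in direction here, Il33 with lower and Il1rl1 with higher values beside 344SQ.

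The technical libraries show the spread within a replicate. Single Boyden libraries held 2 to 76 counts of Il33 and 8 to 82 of Il1rl1. Scaled by total counts, Il33 ran from 14.5 to 29.8 CPM (median 22.5) over the 15 libraries of CAFs alone, from 5.93 to 22.4 (median 14.2) with 344SQ and from 7.97 to 19.9 (median 11.9) with 393P. The single libraries overlapped between the groups where the sums did not. For Il1rl1 the ranges were 9.16 to 20.0, 14.7 to 33.6 and 13.9 to 23.1 CPM.

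**Figure D2:**
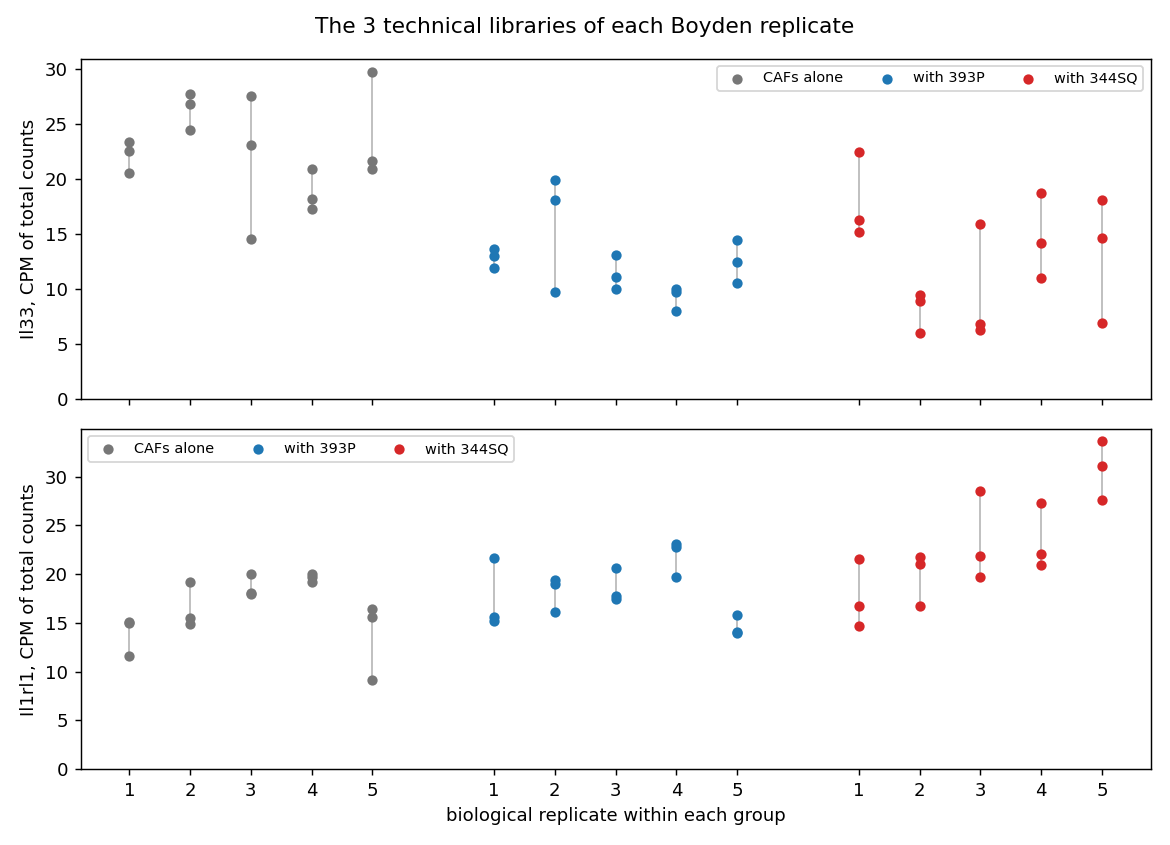
The 3 technical libraries of each Boyden replicate for Il33 (top) and Il1rl1 (bottom), in CPM of total counts on a linear axis. Each point is a library and a grey line joins the libraries of a replicate. Il33 libraries of CAFs alone ran from 14.5 to 29.8 CPM and those with 344SQ from 5.93 to 22.4 CPM, so single libraries overlapped.

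In the shRNA aggregates Il33 was at 22.6, 14.2 and 35.8 CPM with shCTL (18 to 37 counts) and at 80.3, 66.0 and 21.1 CPM with shZEB1 (33 to 183 counts). Replicates 1 and 2 of shZEB1 were high, and replicate 3 lay within the shCTL range (11.7% of genes did not overlap). The means were 24.2 ± 10.9 and 55.8 ± 30.9 CPM, a log2 change of 1.21 ± 0.69 that ran from 0.83 to 1.62 when a replicate was left out. The carcinoma marker sums in the same libraries were 152, 116 and 1641 CPM with shCTL and 141, 1283 and 573 CPM with shZEB1, and endothelial markers summed to 205, 83.3 and 106 CPM with shCTL and to 1070, 126 and 101 CPM with shZEB1. The endothelial sum was highest in shZEB1 replicate 1, which also held the highest Il33 value. Of the 8 endothelial markers, Cldn5 and Emcn were at 0 in all 6 libraries, and Flt1 had up to 2259 counts in a library. No other endothelial marker had more than 19 counts. Mitochondrial genes took 40.8%, 36.2% and 26.1% of counts with shCTL and 27.6%, 25.6% and 23.5% with shZEB1. The part of these values in the Il33 levels was not tested. The aggregates with 344SQ of the other table had 104 to 389 CPM, above all 3 shCTL libraries, but the tables were scaled apart and this gap was not tested.

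Il1rl1 was near the limit of detection in the shRNA aggregates. It had 2, 11 and 0 counts with shCTL, or 1.37, 8.67 and 0 CPM, and 20, 4 and 23 counts with shZEB1, or 8.78, 5.87 and 14.7 CPM. A count of 0 allows up to 3.07 CPM in that library (3 counts of its total). The groups overlapped, and the log2 change of 1.53 ± 1.04 rose to 3.57 without shCTL replicate 2. Mast cell markers, which mark a known carrier of ST2, summed to 2.05 to 6.97 CPM with shCTL and to 4.20 to 211 CPM with shZEB1. Of these 9 markers Cma1, Cpa3, Fcer1a, Mcpt4 and Ms4a2 were at 0 in all 6 libraries, and Tpsab1 had up to 275 counts in a library. Il1rap was at 43.7, 80.4 and 1.93 CPM with shCTL and at 24.6, 11.7 and 14.1 CPM with shZEB1, a log2 change of -1.30 ± 0.93 (edgeR adjusted p = 0.844). Myd88 had a log2 change of -0.09 ± 0.93 (edgeR adjusted p = 0.990).

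**Figure D3:**
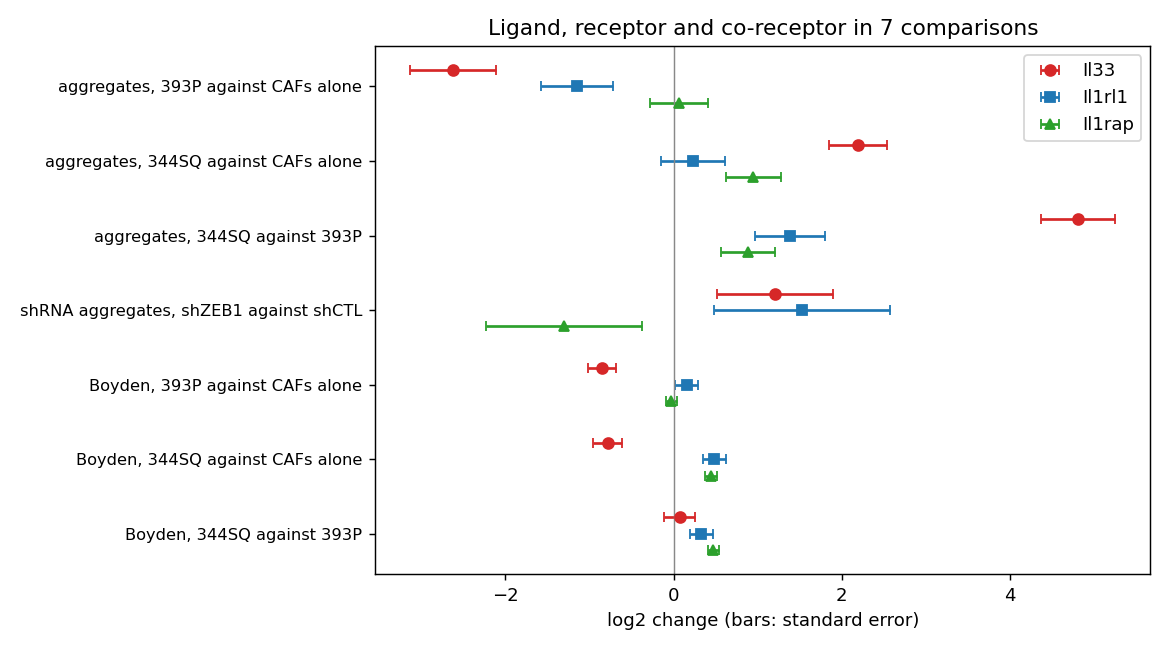
Log2 changes of Il33, Il1rl1 and the co-receptor gene Il1rap in the 7 comparisons, with bars for the standard error. Il33 runs from -2.62 with 393P to 2.19 with 344SQ in aggregates, both against CAFs alone, and lies at -0.86 and -0.78 in the Boyden chamber. The comparisons with CAFs alone within a format share those libraries.

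Ordered by mean over the 8 groups, Il33 was highest in aggregates with 344SQ (218 CPM), then with shZEB1 (55.8), in aggregates of CAFs alone (48.5), with shCTL (24.2), in Boyden CAFs alone (22.5), Boyden 344SQ (13.2), Boyden 393P (12.4) and aggregates with 393P (8.28). Neighbours in this order overlapped, except for aggregates with 344SQ above shZEB1, aggregates of CAFs alone above shCTL, and Boyden CAFs alone above Boyden 344SQ. The gap of CAFs alone above shCTL depended on the scaling. Per total counts alone, replicate 3 of CAFs alone was at 36.5 CPM and replicate 3 of shCTL at 37.9, an overlap. For Il1rl1 the order was aggregates with 344SQ (39.4 CPM), aggregates of CAFs alone (35.1), Boyden 344SQ (23.3), Boyden 393P (18.4), Boyden CAFs alone (16.5), aggregates with 393P (15.5), shZEB1 (9.79) and shCTL (3.35). Every pair of neighbours in that order overlapped. Levels across tables were scaled apart and are given side by side only.

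Among the ligand genes Il33, Il1a, Il1b, Il18 and Il1rn, Il33 had the highest mean level per exon length in each aggregate group of the first table. The genes of the classical ligands, Il1a and Il1b, had 0 to 2 counts in every replicate of the 3 tables. In aggregates of CAFs alone Il1rn, the receptor antagonist, was at 1.28 ± 0.392 CPM per kilobase and Il18 at 0.955 ± 1.02, against 16.8 for Il33. Among receptors Il1r1, which binds IL-1, was at 40.0 ± 8.26 CPM per kilobase and Il1rl2, which binds IL-36, at 25.2 ± 3.17, against 5.09 for Il1rl1. In Boyden CAFs alone Il33 was at 7.80 ± 1.10, Il18 at 5.67 ± 1.40, Il1rn at 4.83 ± 0.461, Il1r1 at 14.2 ± 0.407 and Il1rl1 at 2.39 ± 0.401 CPM per kilobase. With 344SQ there Il33 was at 4.57 ± 1.53, Il18 at 3.43 ± 0.557 and Il1rn at 2.56 ± 0.705. With 393P Il18 (4.72 ± 0.720) and Il1rn (4.62 ± 0.547) had higher means than Il33 (4.30 ± 0.928), within these spreads.

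The other genes of the pathway were read from 5 lists of 101 genes. Of these, 50 passed the count filter in the aggregates, 50 in the shRNA aggregates and 63 in the Boyden chamber. In aggregates with 393P 3 of 50 passed the edgeR test (1 higher, 2 lower), beside 10.7% of all genes (5.41% higher, 5.27% lower). With 344SQ 3 of 50 passed, all lower, beside 5.84% of all genes (3.48% higher, 2.36% lower). Between the lines 0 of 50 passed, beside 4.15% (2.21% higher, 1.94% lower), with 1129 of 7992 genes under an unadjusted p of 0.05. None of the 23 receptor complex and signalling genes tested passed in any aggregate comparison, and their median log2 change was 0.05 with 344SQ and 0.02 with 393P, against -0.01 and 0.00 over all genes.

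The list genes that passed in the aggregates were the receptor genes Il1r1 and Il1rl2, the IL-4 and IL-13 responsive gene Tgm2, and Atp2b4. Il1r1 was at 255 ± 52.6 CPM in CAFs alone, 105 ± 5.80 with 393P and 124 ± 28.8 with 344SQ. It fell by 1.27 ± 0.18 (adjusted p = 7.8e-06) and 1.03 ± 0.18 (adjusted p = 0.000287) on the log2 scale, with no overlap. Il1rl2 fell by 0.61 ± 0.18 with 344SQ (adjusted p = 0.0399), a call lost without CAFs alone replicate 2 or 3 or 344SQ replicate 1 or 3 (largest adjusted p = 0.209), with no filter (0.0617) or with DESeq2 (0.104). Tgm2, a transglutaminase gene, fell from 46.7 ± 16.6 CPM to 15.3 ± 5.32 with 393P (adjusted p = 0.00233) and to 17.0 ± 10.3 with 344SQ (adjusted p = 0.0110), the latter lost without CAFs alone replicate 1 or 344SQ replicate 2 or 3 (largest adjusted p = 0.102). Atp2b4, a plasma membrane calcium pump gene, rose by 1.15 ± 0.33 with 393P (adjusted p = 0.0175), lost without CAFs alone replicate 1 or 393P replicate 1 (largest adjusted p = 0.222) or with DESeq2 (0.0737).

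In the Boyden chamber genes of the signalling list rose with 344SQ. Of 24 receptor complex and signalling genes 7 rose and none fell (29.2%), beside 14.9% of all genes called in either direction and 7.43% called higher (7.44% lower). The list's median log2 change was 0.07 against 0.01 over all genes. Tnfaip3, an inhibitor of NF-kB signalling that NF-kB itself induces, rose from 36.0 ± 4.80 CPM to 97.0 ± 8.29, a log2 change of 1.43 ± 0.09 (adjusted p = 3.3e-12). Nfkbia, the gene of the inhibitor IkB-alpha, rose from 46.9 ± 2.79 to 96.1 ± 7.87 CPM (1.03 ± 0.07, adjusted p = 4.4e-11). Nfkb1, an NF-kB subunit, rose by 0.49 ± 0.08 (adjusted p = 3.9e-05). Il1rap rose from 50.8 ± 3.33 to 69.2 ± 3.09 CPM (0.44 ± 0.07, adjusted p = 2.7e-05). In these 4 genes the replicates of the groups did not overlap, and all 5 replicates with 344SQ were higher, as for 4.85% of all genes. With technical library 1 alone, a fit on fewer counts, the calls of Il1rap (adjusted p = 0.0613) and Nfkb1 (adjusted p = 0.172) were lost.

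The same 4 genes were also higher with 344SQ than with 393P. Of the 24 signalling genes 5 rose and none fell between the lines (20.8%), beside 3.88% of all genes called and 2.52% called higher (1.36% lower). The list's median was 0.11 against 0.00 over all genes. The log2 change was 1.08 ± 0.07 for Nfkbia (adjusted p = 5.0e-11), 0.97 ± 0.08 for Tnfaip3 (adjusted p = 9.4e-09), 0.61 ± 0.08 for Nfkb1 (adjusted p = 6.4e-06) and 0.47 ± 0.07 for Il1rap (adjusted p = 3.7e-05). With 393P against CAFs alone 1 of 24 rose and 2 fell, beside 15.6% of all genes called (7.68% higher, 7.96% lower). Tnfaip3 rose by 0.46 ± 0.09 (adjusted p = 0.000739). Tollip, an inhibitor of IL-1 receptor signalling, fell by 0.31 ± 0.08 (adjusted p = 0.00678). Myd88 fell from 14.2 ± 1.85 to 10.5 ± 1.16 CPM (-0.42 ± 0.12, adjusted p = 0.0167), a call lost without CAFs alone replicate 5 (adjusted p = 0.0613). Its Boyden change was -0.33 ± 0.12 with 344SQ (adjusted p = 0.0808) and 0.10 ± 0.13 between the lines (adjusted p = 0.786). Il1rap had a change of -0.03 ± 0.07 with 393P (adjusted p = 0.819).

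Of 6 other IL-1 family genes tested in the Boyden chamber, 3 passed with 344SQ (1 higher, 2 lower), 1 with 393P (higher) and 1 between the lines (lower). The shares of all genes called in these comparisons were 14.9%, 15.6% and 3.88%, so 1 of 6 with 393P (16.7%) was near the background. Il1rn, which blocks the IL-1 receptor, fell with 344SQ from 26.7 ± 2.55 to 14.2 ± 3.90 CPM (-0.93 ± 0.14, adjusted p = 2.5e-05) and was lower than with 393P (-0.87 ± 0.14, adjusted p = 0.000225), both lost with technical library 1 alone (adjusted p = 0.127 and 0.405). Il18rap, an IL-18 receptor subunit, rose by 1.36 ± 0.27 with 344SQ (adjusted p = 0.000769) and 1.18 ± 0.26 with 393P (adjusted p = 0.00282) from a level of 1.49 ± 0.421 CPM. Il18 fell by 0.73 ± 0.20 with 344SQ (adjusted p = 0.0145), a call lost without CAFs alone replicate 5 (adjusted p = 0.0564). Il1r1, which fell in both aggregate co-cultures, had Boyden changes of 0.05 ± 0.06 with 344SQ (adjusted p = 0.671) and -0.01 ± 0.06 with 393P (adjusted p = 0.905).

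**Figure D4:**
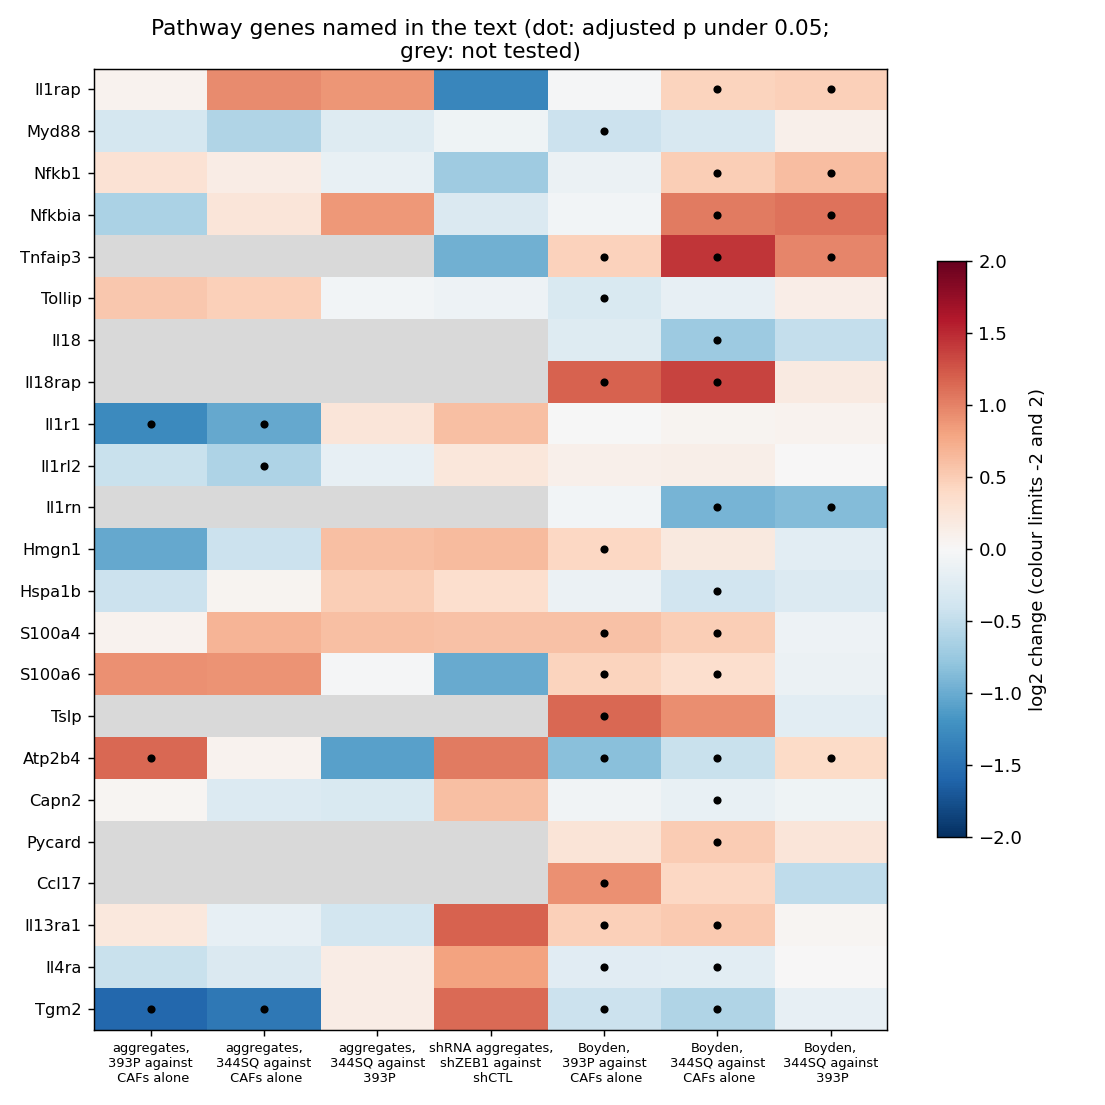
Log2 changes of the pathway genes named in the text (vertical axis) in the 7 comparisons (horizontal axis). Red marks higher and blue lower values, the colour scale is limited to -2 and 2, a dot marks an adjusted p under 0.05 and grey marks genes not tested. Dots lie mostly in the Boyden columns, with Tnfaip3 at 1.43 and Nfkbia at 1.03 with 344SQ, and the shRNA column has none.

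Of 13 other alarmin genes tested in the Boyden chamber, 4 rose and none fell with 393P, and 2 rose and 1 fell with 344SQ. These are 30.8% and 23.1% of the list, beside 15.6% of all genes with 393P (7.68% higher, 7.96% lower) and 14.9% with 344SQ (7.43% higher, 7.44% lower). S100a4 rose from 117 ± 8.37 CPM to 177 ± 16.8 with 393P (0.59 ± 0.11, adjusted p = 0.000390) and to 166 ± 40.3 with 344SQ (0.49 ± 0.11, adjusted p = 0.00198). S100a6 rose by 0.45 ± 0.08 (adjusted p = 0.000554) and 0.33 ± 0.08 (adjusted p = 0.00705). Hmgn1, a nucleosome-binding protein gene, rose by 0.41 ± 0.09 with 393P (adjusted p = 0.00235). Tslp, a cytokine that acts beside IL-33 at barriers, rose with 393P from 1.38 ± 0.452 to 3.05 ± 1.18 CPM (1.14 ± 0.30, adjusted p = 0.00963). With 344SQ the Tslp change was 0.93 ± 0.32 (edgeR adjusted p = 0.0512), and no replicate had more than 32 counts of it. The heat shock gene Hspa1b fell by 0.39 ± 0.12 with 344SQ (adjusted p = 0.0326), lost without CAFs alone replicate 1 or 5 or 344SQ replicate 1 (largest adjusted p = 0.122).

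Of 14 genes for the processing and release of IL-33 tested in the Boyden chamber, 1 fell with 393P, 1 rose and 2 fell with 344SQ, and 1 was higher with 344SQ than with 393P. These are 7.14%, 21.4% and 7.14% of the list, beside 15.6%, 14.9% and 3.88% of all genes. Atp2b4 fell from 36.4 ± 3.21 CPM to 20.4 ± 0.725 with 393P (-0.84 ± 0.09, adjusted p = 2.5e-07) and to 26.6 ± 3.16 with 344SQ (-0.45 ± 0.09, adjusted p = 0.000608). Between the lines it differed by 0.38 ± 0.09 (adjusted p = 0.0156), a call lost without 344SQ replicate 1 (adjusted p = 0.0786). Capn2, a calpain gene, fell by 0.15 ± 0.05 with 344SQ (adjusted p = 0.0293), and Pycard, an inflammasome adaptor gene, rose by 0.51 ± 0.16 (adjusted p = 0.0257). These calls were lost without some of the single replicates, 6 of 15 for Capn2 (also with no filter, adjusted p = 0.0802) and 4 of 15 for Pycard.

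Of 6 genes of type 2 cytokines, their receptors and responses, 2 rose and 2 fell with 393P and 1 rose and 2 fell with 344SQ, beside 15.6% and 14.9% of all genes called. Il13ra1, a receptor of IL-13, rose from 14.8 ± 1.94 CPM to 20.7 ± 2.15 with 393P (adjusted p = 0.00222) and to 21.2 ± 1.82 with 344SQ (adjusted p = 0.00130). Tgm2 fell from 305 ± 20.0 CPM to 226 ± 12.2 with 393P (adjusted p = 0.000147) and to 201 ± 24.0 with 344SQ (adjusted p = 9.9e-07). Il4ra, the IL-4 receptor subunit, had changes of -0.22 ± 0.07 (adjusted p = 0.0411) and -0.21 ± 0.07 (adjusted p = 0.0498), lost when any of 9 and of 13 of the 15 replicates was left out, the latter also with RLE size factors (adjusted p = 0.0517). Ccl17, a chemokine gene, rose with 393P by 0.91 ± 0.29 (adjusted p = 0.0314), lost for 6 of 15.

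Over all 5 lists 13 of 63 genes passed with 393P (20.6%, median log2 change -0.03), 19 of 63 with 344SQ (30.2%, median 0.05) and 7 of 63 between the lines (11.1%, median 0.01). Over all genes 15.6%, 14.9% and 3.88% passed, with medians of 0.00, 0.01 and 0.00, so the share with 393P lay nearest to that of all genes. With shZEB1 against shCTL 0 of 50 passed in edgeR, where 0 of 7801 genes passed in all, 466 had an unadjusted p under 0.05 and DESeq2 called 27 genes, 1 of them from the lists. Of the 41 calls named here, 29 held whichever single replicate was left out. Calls in the Boyden chamber came beside the lower fibroblast marker sums given above, whose part in them was not tested.

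The genes whose levels were most like Il33 were named by the smaller of their Pearson correlations with it over the 9 aggregate and the 15 Boyden replicates, among 7489 genes. They were Adamts1 (0.84 and 0.81), a secreted protease gene, Man1a (0.75 and 0.81), a mannosidase gene, Crim1 (0.86 and 0.74), Pnp (0.76 and 0.74), a nucleoside phosphorylase gene, and Clec16a (0.72 and 0.73). Adamts1 was at 397 ± 66.6 CPM in aggregates of CAFs alone, 414 ± 72.1 with 344SQ and 93.5 ± 9.54 with 393P, and in the Boyden chamber it ran from 261 to 372, from 169 to 222 and from 185 to 234 CPM in these groups. It thus shared with Il33 the low values with 393P and in both Boyden co-cultures, but not the high values in aggregates with 344SQ.

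For Il1rl1 the most alike genes were Ero1l (0.73 and 0.73), an oxidase gene of the endoplasmic reticulum, Ptch1 (0.72 and 0.69), the Hedgehog receptor gene, Mmp3 (0.82 and 0.69), a matrix protease gene, Mdm2 (0.70 and 0.67) and Rab21 (0.72 and 0.66). Mmp3 was at 12.4 ± 2.21 CPM in Boyden CAFs alone, 75.4 ± 14.3 with 344SQ and 39.5 ± 4.28 with 393P. In the aggregates it was at 22.5 ± 19.0, 11.8 ± 11.2 and 3.49 ± 1.66 CPM, so its mean was lower with 344SQ than in CAFs alone, unlike that of Il1rl1. Il33 and Il1rl1 themselves correlated by 0.60 over the aggregates and by -0.47 over the Boyden replicates. The points within a table share groups and a sequencing design, and these correlations are descriptions.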

How the data were processed

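Bulk RNA was measured in 60 libraries. The authors deposited raw counts per gene, made with STAR and HTSeq on mm10, per the submitters' processing notes. Versions, annotation release, strand setting and filters were not given in the sources used here. Technical libraries (3 per Boyden replicate) were added up. Each table was fitted on its own over all of its groups with edgeR 4.0.16 (filterByExpr, TMM, 2-sided quasi-likelihood tests, R 4.3.3), and p-values were adjusted by Benjamini-Hochberg over all genes tested (7992, 7801 and 14040), with calls at an adjusted p under 0.05. Both Il33 and Il1rl1 passed the filter in the 3 tables. The fit was also run on simulated counts, drawn with the spread estimated from each table and without differences in cell mixture. That run therefore does not show how such differences affect the calls. Standard errors are the log2 change divided by the root of F. Levels are TMM-scaled CPM. Of 48440 gene identifiers 48058 matched GENCODE M21 with the version left off, which gave positions and exon lengths.

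The members and lists were chosen with earlier results of these data known. Il33, Il1rl1, Il1rap and Myd88 are named in each comparison, with up to 4 genes per list and comparison of smallest p among those called, and the 5 genes most like each member among those with a mean of at least 5 CPM. Outside this rule, IL-1 family genes were named by role where levels per length are given, and Il1r1 was repeated for the Boyden chamber after its values were seen.

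Alternatives were no filter, RLE size factors, DESeq2 1.42.0, a block for the replicate number, removal of rRNA-like and mitochondrial genes, the first technical library alone and each replicate left out. Technical library 2 alone and technical library 3 alone were added after seeing the data. Plots used matplotlib 3.10.9 under Python 3.11.15.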

Additional observations from a re-analysis of the deposited data

Results flagged for a closer look

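Among Boyden groups of 5 replicates, Myd88 had a replicate with 393P at 8.54 CPM, below a next value of 10.6 CPM, and Hmgn1 had a replicate with 344SQ at 605.8 CPM, above a next value of 434 CPM. Both gaps were large for the range of the group by Dixon's test, which chance alone passes in about 1 in 20 groups. Each Boyden group was screened at both ends for Il33, Il1rl1 and every pathway gene named, so some such gaps come by chance. Nothing is read from these.

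The other results here are genes for which every replicate of a co-culture moved one way from the mean of CAFs alone and every replicate of another co-culture the other way. None of these differences was tested, and the share of all genes that meet this rule was not counted. Il33 was chosen by its levels in these same libraries, so nothing is read from its place here. Values are differences between log2 ratios of mean CPM to CAFs alone. For Il33 the difference was 4.72 between aggregates with 344SQ and with 393P, and 2.94 between aggregates and the Boyden chamber with 344SQ. For Nfkb1 it was 0.61 between 344SQ and 393P in the Boyden chamber.

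Between aggregates and the Boyden chamber with 344SQ it was -0.73 for Il1rl2, -2.27 for Tnfaip3, -2.30 for Il18rap, -0.65 for Hmgn1 and 0.64 for Tollip. With 393P it was 1.98 for Atp2b4, -1.35 for Tnfaip3, -1.48 for Hmgn1 and 0.84 for Tollip. Tnfaip3 and Il18rap did not pass the count filter in the aggregates, so their values there rest on few counts.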

How the results depend on the processing

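The log2 changes of Il33 and Il1rl1 moved by more than the spread between replicates only when a replicate was left out. For Il33 in aggregates they ran from -3.75 to -2.12 (393P against CAFs alone), 1.45 to 2.53 (344SQ against CAFs alone) and 4.07 to 5.94 (between the lines), and for Il1rl1 with shZEB1 from 0.99 to 3.57. Left-out replicates gave 284 to 511 genes called for 344SQ aggregates against CAFs alone (284 without CAFs alone replicate 3), 1 to 3 pathway genes there (1 without 344SQ replicate 3) and 0 to 2 between the lines, where no filter gave 2 and removal of rRNA-like and mitochondrial genes gave 1. In the shRNA table, genes called were 90 with no filter (2 in the lists), 27 with DESeq2 (1 in the lists) and 1 with the replicate block, against 0.

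Single technical libraries called fewer genes in the Boyden chamber. With library 1, 2 and 3 alone, 609, 199 and 1133 genes were called for 393P (2195 for the sum), 500, 513 and 739 for 344SQ (2087) and 73, 280 and 152 between the lines (545). In the lists library 1 gave 5, 7 and 2 calls in these comparisons, library 2 gave 2 for 393P and 6 for 344SQ, and library 3 gave 8 for 344SQ and 4 between the lines. No filter gave 11 pathway calls between the lines, against 7. Fewer counts enter each fit of a single library. With library 1 alone the calls of Tnfaip3, Tollip, Myd88, S100a4, S100a6 and Il4ra with 393P, of Il1rap, Nfkb1, Il1rn, S100a6, Il4ra, Hspa1b, Capn2 and Pycard with 344SQ, and of Il1rap, Nfkb1, Il1rn and Atp2b4 between the lines were lost.

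Replicate numbers did not pair the samples: same-numbered replicates correlated by -0.03 to 0.07 in the aggregates, -0.03 to 0.13 in the shRNA table and -0.30 to 0.26 in the Boyden chamber, and 2 of 9, 3 of 6 and 2 of 15 samples correlated best with their own number. With the replicate block, 870, 467 and 321 genes were called in the aggregate comparisons and 1796, 1767 and 426 in the Boyden ones, and the named calls of Il4ra with 393P and of Il4ra, Hspa1b, Capn2 and Pycard with 344SQ were lost (adjusted p 0.0529 to 0.0791). Of the 41 named calls 12 were lost without some replicate, and 29 held without any. Depth limits Il33 in aggregates with 393P (3 to 17 counts) and Il1rl1 in the shRNA table (0 to 23 counts).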
